A study of Homo sapiens with 12 samples.

Results

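The proteins of the mitochondrial ribosome are encoded by nuclear genes, and 79 of them were followed here: every gene listed as protein coding whose symbol begins with MRPL (large subunit) or MRPS (small subunit) and a digit, 49 large-subunit and 30 small-subunit rows. They were 79 of 26226 genes in the KBM7 table and 79 of 28328 genes in the K562 table. KBM7 and K562 are human cell lines derived from chronic myelogenous leukemia in blast crisis. Cells were transfected with 1 pool of siRNAs against the deubiquitinase USP15 (siUSP15) or with 1 non-targeting pool (siCtrl), both with a lipid reagent, and total RNA was taken 72 h later. KBM7 had 2 siUSP15 and 2 siCtrl libraries, and K562 had 4 siUSP15 and 4 siCtrl libraries. Each line is 1 cell line and each arm 1 siRNA pool, so an effect of USP15 loss and an effect of either pool cannot be told apart. The sources do not say that replicates were separate cultures, and the p-values then measure only the spread between libraries.

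Mitochondrial ribosomes are assembled in the mitochondrion from these imported proteins and from RNA encoded in mitochondrial DNA. They translate the few messages of mitochondrial DNA, all of them for subunits of the respiratory chain and ATP synthase. The large subunit joins amino acids and holds the exit tunnel, and the small subunit reads the message. Part of the proteins have a counterpart in bacterial ribosomes and the others are specific to mitochondria. MRPS30 and MRPS18A carry small-subunit names but sit in the large subunit in structures, and MRPS36 is also known as a subunit of the 2-oxoglutarate dehydrogenase complex. In these bulk samples, less RNA per cell and fewer cells that carry it cannot be told apart.

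The 4 KBM7 libraries held 23450607 to 29441118 counts each, and the 8 K562 libraries 23020401 to 43566543. The members took 0.42% to 0.43% of all counts in KBM7 and 0.53% to 0.59% in K562. The K562 libraries stood apart in sets, replicates 1 and 2 (set 1) and replicates 3 and 4 (set 2), along a first principal component with 64.4% of the variance. K562 results are therefore given with the set as a block and within each set. Of 14 haematopoietic markers, 10 in KBM7 and 12 in K562 were at 1 CPM (counts scaled to library size) or more in every library, with PTPRC and MYB among them. Of 8 markers of other cells, 2 in KBM7 and 3 in K562 reached that level in every library. EPCAM was at 83.4 to 95.2 CPM in K562 and at most at 0.0844 CPM in KBM7. The part of these markers in the results was not tested.

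Sequence upstream of 4 start sites is shown for the genes that the results turn on: MRPS6 and MRPL16, which moved most in KBM7, and MRPL36 and MRPL20, which rose in K562 set 1. Each is the 250 bases before the RefSeq start in GRCh38.p14, read 5′ to 3′ on the gene's strand. Capitals mark the letters CCGGAAG (known for ETS factors), ATGGCGGC (YY1), GGGCGG (SP1), CCAAT (NF-Y) or the palindromic NRF1 motif, on either strand. Overlapping matches run together.
MRPS6 (chr21:34073328-34073577, plus strand): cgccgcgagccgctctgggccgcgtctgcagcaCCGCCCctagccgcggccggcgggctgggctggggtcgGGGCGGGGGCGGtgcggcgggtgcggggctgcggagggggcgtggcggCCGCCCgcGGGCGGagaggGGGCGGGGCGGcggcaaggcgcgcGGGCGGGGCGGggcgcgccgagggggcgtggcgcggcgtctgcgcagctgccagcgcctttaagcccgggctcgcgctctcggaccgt
MRPL16 (chr11:59810779-59811028, minus strand): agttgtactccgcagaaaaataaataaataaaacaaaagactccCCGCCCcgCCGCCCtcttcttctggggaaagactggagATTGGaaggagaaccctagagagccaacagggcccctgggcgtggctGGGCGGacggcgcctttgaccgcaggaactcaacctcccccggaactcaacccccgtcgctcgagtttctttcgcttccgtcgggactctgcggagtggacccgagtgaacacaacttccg
MRPL36 (chr5:1799838-1800087, minus strand): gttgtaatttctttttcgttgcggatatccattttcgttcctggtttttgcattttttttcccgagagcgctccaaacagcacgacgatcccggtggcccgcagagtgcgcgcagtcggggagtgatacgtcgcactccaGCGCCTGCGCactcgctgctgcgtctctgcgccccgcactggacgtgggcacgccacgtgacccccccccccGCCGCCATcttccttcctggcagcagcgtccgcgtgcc
MRPL20 (chr1:1407294-1407543, minus strand): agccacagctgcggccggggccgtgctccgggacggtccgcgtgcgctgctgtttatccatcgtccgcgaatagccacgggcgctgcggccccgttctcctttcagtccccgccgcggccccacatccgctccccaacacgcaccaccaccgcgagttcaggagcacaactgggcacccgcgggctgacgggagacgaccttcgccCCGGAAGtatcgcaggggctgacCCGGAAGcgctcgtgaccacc
The MRPS6 stretch holds GGGCGG letters alone among the 5 motifs, MRPL16 holds GGGCGG and CCAAT letters, MRPL20 holds CCGGAAG, and MRPL36 holds ATGGCGGC and NRF1 motif letters. The window of the neighbouring gene SLC5A3 is identical to that of MRPS6. A promoter window of 300 bases was matched by symbol for 68 of the 77 distinct symbols (84 windows). CCGGAAG was in 38.1% of these windows, against 10.3% of all 35116 windows of that length. ATGGCGGC was in 22.6% of the members' windows, against 3.0% of all windows. The NRF1 motif was in 11.9%, against 5.78% of all. GGGCGG was in 59.5%, against 45% of all, and CCAAT was in 33.3%, against 34.6%. For counts by call, only the first window listed for each symbol was scored. In KBM7, CCGGAAG was found for 3 of 14 members past the threshold and for 25 of the 54 others with a window. In K562 set 1 it was found for 7 of 21 past the threshold and for 21 of 47 others, and over both K562 sets for 4 of 7 and for 24 of 61 others, so the order of the shares was not the same in each. A match is a description of letters, not of a bound site.

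The targeted gene followed its labels in every library. USP15 (chromosome 12, 62260338 to 62417431, hg38) had 113.6 ± 0.846 CPM in siUSP15 KBM7 cells and 212.8 ± 4.28 CPM in siCtrl KBM7 cells (SD, n = 2 each). In K562 set 1 it had 125.0 ± 13.2 CPM with siUSP15 and 272.0 ± 4.11 CPM with siCtrl (SD, n = 2 each). In K562 set 2 it had 194.0 ± 3.91 CPM with siUSP15 and 336.4 ± 9.01 CPM with siCtrl (SD, n = 2 each). The siUSP15 level was 53.4% of siCtrl in KBM7, 45.9% in set 1 and 57.7% in set 2. In the edgeR quasi-likelihood test the log2 fold change was -0.91 ± 0.04 (SE) in KBM7 with an adjusted p of 1.58e-07, and -0.96 ± 0.06 in K562 with an adjusted p of 4.67e-05. The reduction was larger in set 1 than in set 2, by -0.32 ± 0.08 on the log2 scale (adjusted p = 0.0128, edgeR).

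Messages for mitochondrial ribosomal proteins changed little in KBM7 cells with siUSP15, apart from MRPS6. Of the 77 members that passed the filter on low counts, 5 rose and 9 fell at an adjusted p under 0.05 (edgeR), a share of 18.2% where 29% of all 14980 genes tested passed. The median log2 fold change of the members was 0.03, against 0.00 for all genes. The median size of the change, without its sign, was 0.09 on the log2 scale for members and 0.16 for all genes. For 72 of 77 members the 95% interval of the change lay within 0.5 log2 units either side of 0, and for 9368 of all 14980 genes. The large subunit (48 tested) had 2 members higher and 6 lower with a median of 0.01, and the small subunit (29 tested) had 3 higher and 3 lower with a median of 0.04. The library left out and the tool set this count: 3 members passed without siCtrl replicate 2, 7 without siCtrl replicate 1, and 7 with DESeq2, whereas MRPL16 and MRPL24 passed in all 10 alternatives run.

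**Figure D1:**
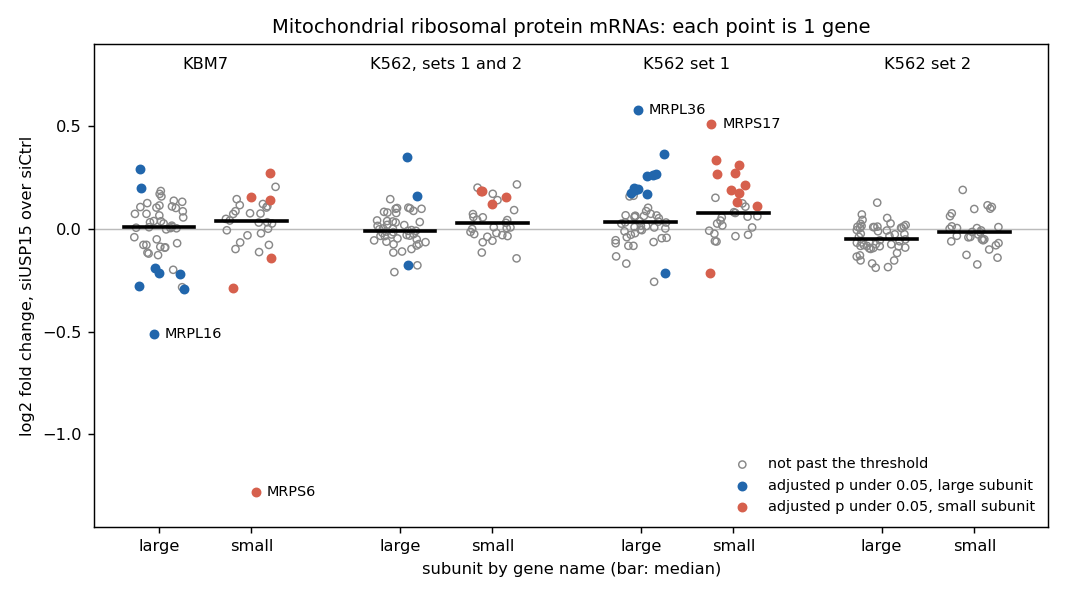
Log2 fold change of siUSP15 over siCtrl (vertical axis) for each member tested, by subunit and comparison; 1 point is 1 gene, filled where the edgeR adjusted p was under 0.05, and bars are medians. The MRPS6 point at -1.28 in KBM7 lies far below the other members, whose lowest value is -0.51, and K562 set 2 has no filled point.

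MRPS6, a small-subunit protein with a bacterial counterpart, was the member with the largest change in KBM7, and it had been put forward as an outlier with these values known, so its values are a description without a test. It had 40.5 and 48.5 CPM in siUSP15 KBM7 libraries, against 102 and 113 CPM in siCtrl KBM7 libraries, which is 41.3% of siCtrl. The log2 fold change was -1.28 ± 0.08 (SE), and the groups did not overlap. In K562 the difference ran the other way and was small. MRPS6 had 43.1 and 42.3 CPM with siUSP15 in set 1, against 35.4 and 35.4 CPM with siCtrl. In set 2 it had 48.6 and 45.3 CPM with siUSP15, against 42.9 and 44.4 CPM with siCtrl. The log2 fold change was 0.19 ± 0.05 over both sets. The siCtrl level of KBM7 thus stood above all other libraries, and the siUSP15 level of KBM7 lay in the range of the K562 libraries. Without MRPS6, 5 members rose and 8 fell in KBM7, and the most negative of the remaining 76 changes was -0.51.

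SLC5A3, which encodes a sodium-coupled inositol transporter, lies within the MRPS6 locus on the same strand of chromosome 21. The deposited tables place MRPS6 at 34073224 to 34143034 and SLC5A3 at 34073570 to 34106260 (hg38). In GENCODE 44 (GRCh38) the genes share a first exon of 168 bases and further stretches of 74 and 23 bases, 265 bases in all, which are 6.2% of the exonic bases of MRPS6 and 2.29% of those of SLC5A3. A further gene of the same strand, without a symbol there, shares 294 bases with MRPS6, 6.88% of its exonic bases. SLC5A3 had 79.4 and 102 CPM in siUSP15 KBM7 libraries, against 291 and 354 CPM in siCtrl KBM7 libraries, a log2 fold change of -1.83 ± 0.10 (SE). In K562 set 1 it had 93.2 and 82.6 CPM with siUSP15, against 100.0 and 91.6 CPM with siCtrl. In K562 set 2 it had 92.3 and 103 CPM with siUSP15, against 83.4 and 84.4 CPM with siCtrl. Both genes were therefore low with siUSP15 in KBM7, and SLC5A3 did not share the rise of MRPS6 in K562 set 1, where its change was -0.13 ± 0.06. The ratio of MRPS6 to SLC5A3 counts was 0.510 and 0.476 in siUSP15 KBM7 libraries, against 0.352 and 0.320 in siCtrl KBM7 libraries. In K562 set 1 it was 0.463 and 0.512 with siUSP15, against 0.355 and 0.386 with siCtrl, so the groups were apart there too. In set 2 it was 0.526 and 0.439 with siUSP15, against 0.514 and 0.526 with siCtrl, and the groups overlapped. How reads in shared exons were assigned is not given in the sources used here. The part of SLC5A3, or of the gene without a symbol, in the MRPS6 values was not tested.

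**Figure D2:**
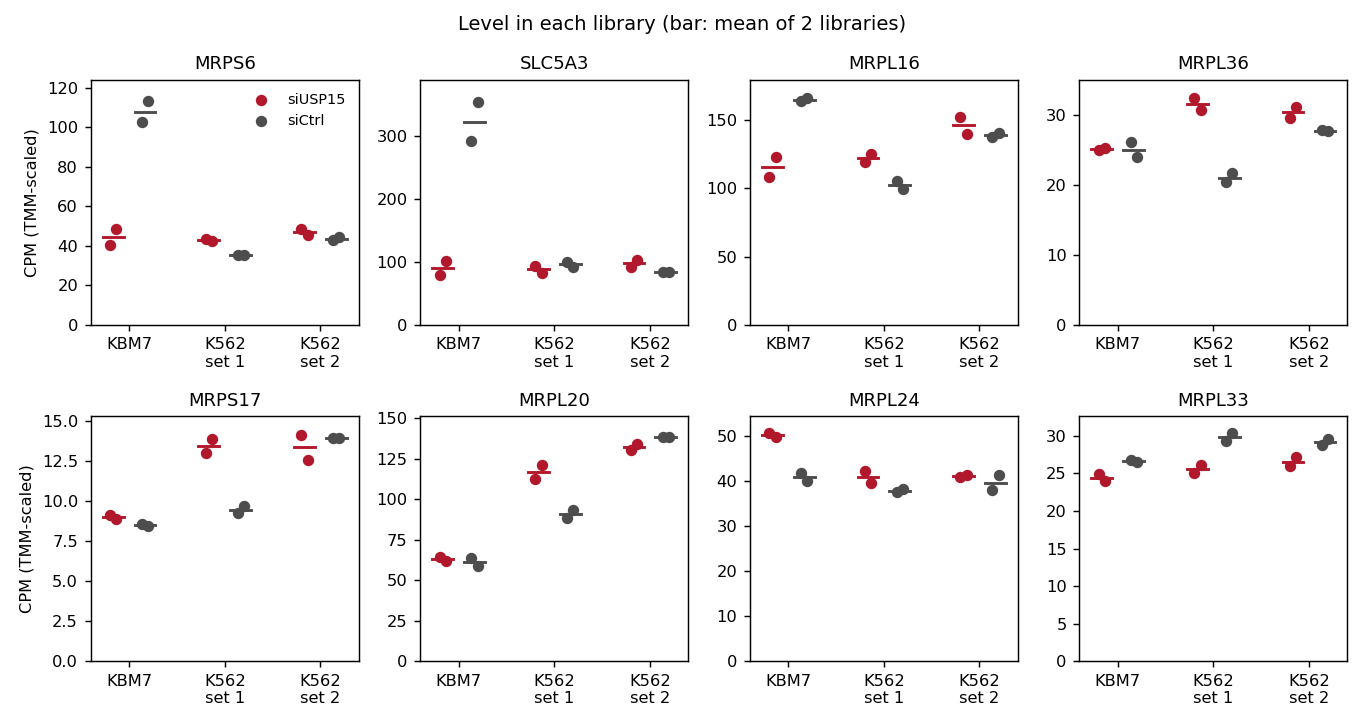
CPM after TMM scaling (vertical axes, from 0) in each library for MRPS6, its neighbour SLC5A3 and 6 further members; siUSP15 libraries are red and on the left of each pair, siCtrl libraries grey, and bars are means of 2 libraries. MRPS6 and SLC5A3 are low with siUSP15 in KBM7 (40.5 and 48.5 CPM for MRPS6), and MRPL36, MRPS17 and MRPL20 have their widest gap between siUSP15 and siCtrl in K562 set 1.

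Among large-subunit members in KBM7, MRPL16, whose bacterial counterpart lies by the peptidyl transferase centre, fell most. It had 109 and 123 CPM with siUSP15, against 164 and 166 CPM with siCtrl, a log2 fold change of -0.51 ± 0.06 (SE, adjusted p = 5.59e-05, edgeR). MRPL34 had 24.6 and 25.4 CPM with siUSP15, against 30.6 and 30.6 CPM with siCtrl, a change of -0.29 ± 0.07 (adjusted p = 0.00633, edgeR). The other large-subunit members that fell were MRPL41, MRPL45, MRPL57 and MRPL14, with changes of -0.28, -0.22, -0.22 and -0.19. MRPL45 is known to anchor the ribosome at the inner membrane, and MRPL14 lies at the face that joins the small subunit. MRPL24, near the exit tunnel, rose: it had 50.6 and 49.7 CPM with siUSP15, against 41.8 and 40.1 CPM with siCtrl, a change of 0.29 ± 0.06 (adjusted p = 0.00243, edgeR). MRPL39 rose by 0.20. The groups did not overlap for any of these large-subunit members, nor for many that did not pass, such as MRPL1, MRPL10 and MRPL11. The calls of MRPL14, MRPL39, MRPL41 and MRPL57 were lost with DESeq2 and when either siCtrl library was left out. The change of MRPL41 was -0.16 without siUSP15 replicate 2, and that of MRPL57 was -0.14 without siCtrl replicate 1.

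Among small-subunit members in KBM7, MRPS34, a mitochondria-specific protein, fell most after MRPS6. It had 60.0 and 52.9 CPM with siUSP15, against 68.6 and 69.5 CPM with siCtrl, a change of -0.29 ± 0.06 (adjusted p = 0.00456, edgeR). MRPS2 fell by 0.14 on the log2 scale. MRPS18C, 1 of 3 paralogues of a single bacterial protein, rose: it had 35.6 and 33.4 CPM with siUSP15, against 29.1 and 28.1 CPM with siCtrl, a change of 0.27 ± 0.07 (adjusted p = 0.00901, edgeR). MRPS35 rose by 0.16 and the paralogue MRPS18B by 0.14, both calls that DESeq2 did not make. The remaining paralogue, MRPS18A, had a change of 0.04 and did not pass. The exons of MRPL34, MRPS34, MRPS18C and MRPS2 overlap a gene of the opposite strand in GENCODE 44, and whether the counting used strand is not stated.

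Over both K562 sets, 6 members rose and 1 fell of 78 tested, 8.97%, where 15.8% of all 13731 genes passed. With replicate number as a block, 0 members passed in edgeR, with 12 at an unadjusted p under 0.05. It was not shown that the number pairs the libraries. The members' median change was 0.00, the same as for all genes. For 75 of 78 members the 95% interval lay within 0.5 log2 units either side of 0, and for 10315 of all 13731 genes. The 6 that rose were MRPL36, MRPS6, MRPS12, MRPL16, MRPS33 and MRPS25, by 0.35, 0.19, 0.18, 0.16, 0.16 and 0.12. Without MRPS6, which is described above without a test, 5 of 77 members rose and 1 fell. MRPL33 fell by 0.18 on the log2 scale. It had 25 and 26.2 CPM with siUSP15 in set 1, against 29.3 and 30.4 CPM with siCtrl, and 25.9 and 27.2 CPM with siUSP15 in set 2, against 28.7 and 29.6 CPM with siCtrl. All siUSP15 libraries thus lay below all siCtrl libraries for this large-subunit gene, whose exons share 324 bases with BABAM2. The same order held for MRPL39 and MRPL48, which did not pass. All siUSP15 libraries lay above all siCtrl libraries for MRPL36, and for MRPS28, which did not pass. How often all genes separate in this way was not counted, so nothing is concluded from it. Leaving out a single library of set 1 took the count to 0 (either siCtrl library, or siUSP15 replicate 1) or to 3 (siUSP15 replicate 2), and it was 4 without siCtrl replicate 4.

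In K562 set 1 most of the members that passed rose. Of 78 members tested, 20 rose and 2 fell, 28.2%, where 36.7% of all 13731 genes passed (edgeR). Of all genes, 2475 rose and 2569 fell. Without MRPS6, which is described above without a test, 19 of 77 members rose and 2 fell. The median change was 0.05 for all members, 0.03 for the large subunit and 0.08 for the small subunit, against -0.01 for all genes. The large subunit had 10 higher and 1 lower of 49, and the small subunit had 10 higher and 1 lower of 29. Counting MRPS30 and MRPS18A with the large subunit and leaving out MRPS36 gave 10 higher and 0 lower of 26 for the small subunit. The members' summed level with siUSP15 in set 1 was 3160.7 ± 78.9 CPM for the large subunit, against 3027 ± 24.2 CPM with siCtrl (SD, n = 2 each). For the small subunit it was 2246 ± 30.2 CPM with siUSP15, against 2137 ± 15 CPM with siCtrl (SD, n = 2 each). The ratio of the sums, large over small, was 1.41 ± 0.016 with siUSP15 and 1.42 ± 0.0014 with siCtrl in set 1. In set 2 it was 1.425 ± 0.0009 with siUSP15 and 1.455 ± 0.0069 with siCtrl (SD, n = 2 each). In KBM7 it was 1.64 ± 0.0075 with siUSP15 and 1.63 ± 0.0054 with siCtrl. The groups overlapped in set 1 but not in set 2 or KBM7. Without MRPS6, left out after the values were seen, the KBM7 direction turned, with 1.69 ± 0.0013 with siUSP15 and 1.74 ± 0.0047 with siCtrl, while in set 2 the ratio was still lower with siUSP15, at 1.453 ± 0.002, against 1.482 ± 0.0062 with siCtrl.

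MRPL36, a small zinc-binding protein of the large subunit, had the largest rise in set 1. It had 32.5 and 30.7 CPM with siUSP15, against 20.5 and 21.7 CPM with siCtrl, 150.0% of siCtrl and a log2 fold change of 0.58 ± 0.06 (SE, adjusted p = 6.05e-06, edgeR). MRPS17 of the small subunit had 13 and 13.8 CPM with siUSP15, against 9.27 and 9.67 CPM with siCtrl, a change of 0.51 ± 0.09 (adjusted p = 0.000495, edgeR). MRPL20, whose bacterial counterpart is an early assembly protein, had 112 and 121 CPM with siUSP15, against 88.7 and 93.2 CPM with siCtrl, a change of 0.36 ± 0.05 (adjusted p = 2.07e-05, edgeR). For all 3 the siUSP15 libraries lay above the siCtrl libraries in set 1, as they also did for members that did not pass, such as MRPL17 and MRPL2. In set 2 the siCtrl libraries themselves stood higher, at 27.9 and 27.8 CPM for MRPL36, 13.9 and 13.9 CPM for MRPS17 and 138 and 138 CPM for MRPL20. The siUSP15 libraries of set 2 had 29.6 and 31.2 CPM of MRPL36, 14.1 and 12.6 CPM of MRPS17 and 130.4 and 134 CPM of MRPL20.

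The other rises among the 8 largest in set 1 were those of MRPS26, MRPS12, MRPS2, MRPL57 and MRPS6, with changes of 0.33, 0.31, 0.27, 0.27 and 0.27. MRPS12, of the decoding centre, had 64.1 and 66.3 CPM with siUSP15, against 52.7 and 52.7 CPM with siCtrl (adjusted p = 0.000115, edgeR). MRPS2 and MRPL57, which fell in KBM7, rose here. MRPL33 fell by 0.22 and MRPS36 by 0.21 on the log2 scale. MRPL36, MRPS17, MRPL20, MRPS26, MRPS12 and MRPS2 passed in all 15 alternatives run, and MRPL57 was lost without siCtrl replicate 2 or siUSP15 replicate 2, and its change was 0.17 without siUSP15 replicate 2. The call of MRPL33 was lost without siCtrl replicate 2, with DESeq2 and with no filter, and that of MRPS36 without siCtrl replicate 1.

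In K562 set 2, 0 of 78 members passed in edgeR, DESeq2 or limma-voom, where 2.44% of all 13731 genes passed in edgeR. Before adjustment, 12 members had a p under 0.05 in edgeR, 1 higher and 11 lower, where 17% of all genes did. The replicate block brought 2 members past the threshold, MRPL18 at -0.15 and MRPL32 at -0.19. The median change was -0.03, with -0.05 for the large subunit and -0.02 for the small subunit, and 50 of 78 members had a negative value. For 76 of 78 members the 95% interval lay within 0.5 log2 units either side of 0, and for 9991 of all 13731 genes. Summed over the large subunit, siUSP15 libraries of set 2 had 3419 ± 47.7 CPM, against 3534 ± 41.8 CPM with siCtrl (SD, n = 2 each). Summed over the small subunit they had 2399.6 ± 32.0 CPM, against 2429 ± 17.3 CPM with siCtrl, and these groups overlapped. Changes of the members in the 2 sets had a Pearson correlation of 0.506 over 78 genes, which are not independent replicates, and 48 of 78 had the same sign.

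**Figure D3:**
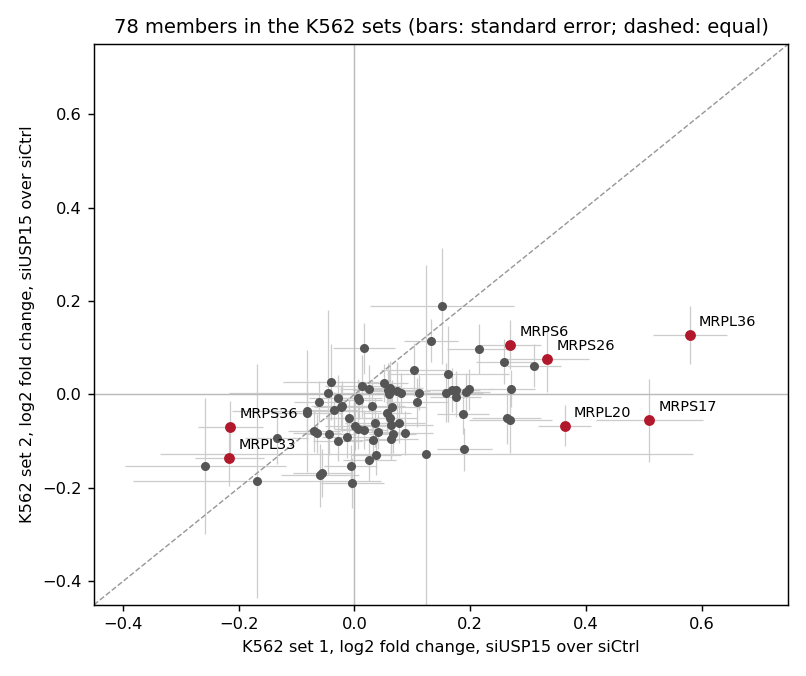
Log2 fold change of siUSP15 over siCtrl in K562 set 1 (horizontal) and set 2 (vertical) for 78 members, with standard errors as bars and the line of equal change dashed. MRPL36, MRPS17 and MRPL20 lie far to the right (0.58, 0.51 and 0.36 in set 1) and between -0.07 and 0.13 in set 2.

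The difference between the sets was tested in the same fit. For 10 of 78 members the change was higher in set 1 than in set 2, and for 0 it was lower, 12.8% where 13% of all 13731 genes passed (edgeR). Of all genes, the change was higher in set 1 for 949 and lower for 835. Before adjustment, 27 of 78 members had a p under 0.05, where 28.4% of all genes did, and for all 27 the difference was positive. The members with the lowest p were MRPL20, MRPL36, MRPL11 and MRPS2, with differences of 0.43 ± 0.06, 0.45 ± 0.09, 0.31 ± 0.07 and 0.26 ± 0.06 (SE). MRPL11 is a protein of the stalk base, where translation factors bind. MRPL20, MRPL36 and MRPL11 passed in all 14 alternatives run. The count was 3 without siCtrl replicate 1 or siCtrl replicate 3, 5 without either replicate 2 of set 1, and 6 once siUSP15 replicate 4 was dropped, but 17 once siUSP15 replicate 1 was dropped. DESeq2 gave 6. Mitochondrial genes took 5.13% and 5.43% of counts with siUSP15 in set 1, against 4.83% and 4.98% with siCtrl, and 3.20% to 3.27% in set 2. Depth also differed in set 1, where siUSP15 replicate 2 had 43566543 counts. The part of either in the set 1 values was not tested.

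**Figure D4:**
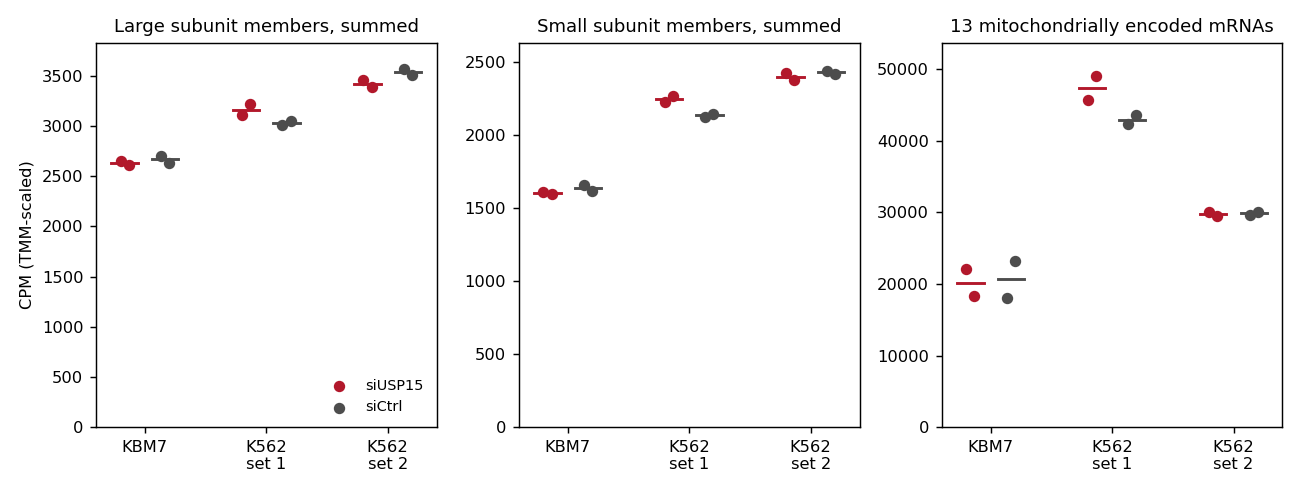
Summed CPM (vertical axes, from 0) of the large-subunit members, the small-subunit members and the 13 mitochondrially encoded mRNAs in each library; siUSP15 is red and on the left of each pair, siCtrl grey, and bars are means of 2 libraries. Members of both subunits are higher in set 2 than in set 1, and mitochondrially encoded mRNAs are lower in set 2.

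The question whether KBM7 and K562 cells responded alike was addressed by the KBM7 change minus the mean of the changes in the K562 sets. It was fitted over all 12 libraries. Of 78 members, the change was higher in KBM7 for 8 and lower in KBM7 for 10, MRPS6 among them (17 in all without it), 23.1% where 23.2% of all 15833 genes passed (edgeR). Apart from MRPS6 at -1.46 ± 0.08 (SE), the lowest p were those of MRPL16 at -0.67 ± 0.07 (adjusted p = 9.37e-08, edgeR), MRPL45 at -0.30 ± 0.06 and MRPS2 at -0.28 ± 0.06. For MRPS2 the K562 sets themselves differed, with a change of 0.27 in set 1 and 0.01 in set 2. In the other direction MRPL39 had a difference of 0.31 ± 0.07 (adjusted p = 0.00235, edgeR), MRPS18C of 0.25, MRPS18B of 0.18 and MRPL24 of 0.22. The count was 11 without either siCtrl library of KBM7 or without siCtrl replicate 2 of K562. Of the members tested in both lines, 0 passed in the same direction, and MRPL16 passed in opposite directions. Its K562 call was lost in 7 of 15 alternatives, the replicate block and 5 left-out libraries among them. MRPS6, described above without a test, also had values of opposite sign. For MRPL16 the siUSP15 libraries were below the siCtrl libraries in KBM7. In K562 set 1 they were above, with 119 and 125 CPM against 105 and 99.5 CPM. In set 2 they overlapped, with 153 and 139.6 CPM against 138 and 141 CPM. A further 12 members passed in KBM7 alone and 5 in K562 alone, which by itself does not show that the lines differ for them.

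**Figure D5:**
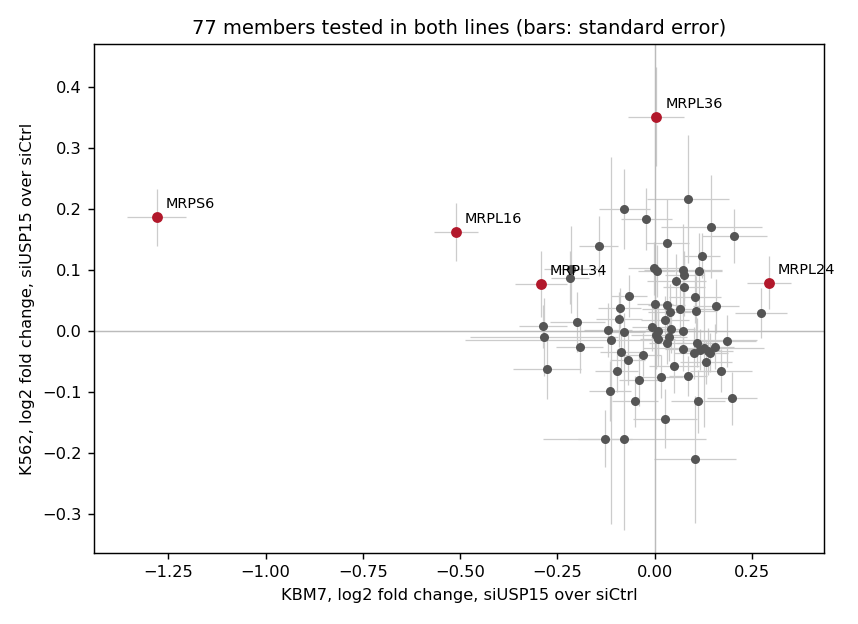
Log2 fold change of siUSP15 over siCtrl for KBM7 (horizontal axis) against K562, set as a block (vertical axis), over 77 members, with standard errors as bars. MRPS6 (-1.28 and 0.19) and MRPL16 (-0.51 and 0.16) lie at the upper left, and MRPL36 lies at 0.00 in KBM7 and 0.35 in K562.

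Among genes that act with the mitochondrial ribosome, some passed the threshold upward and some downward. Of 14 translation factors in KBM7, 2 rose, MTIF2 (initiation) by 0.30 and GUF1 by 0.20, and MTRF1L (release) fell by 0.22 on the log2 scale. That was 21.4% of the list, where 29% of all genes passed in KBM7. Of 29 assembly and rRNA maturation factors in KBM7, 3 rose and 2 fell (17.2%), with MTG1, a GTPase of assembly, at -0.57 and NGRN at -0.28. In K562 over both sets, GUF1 fell by 0.16 and GFM2 (recycling) by 0.15 on the log2 scale, so GUF1 moved in opposite directions in the lines. MTG2, a GTPase of assembly, rose by 0.18 there. In K562, 14.3% of translation factors and 3.45% of assembly factors passed, where 15.8% of all genes did. Of the 13 mitochondrially encoded mRNAs, 0 passed in KBM7 (edgeR), 3 rose in K562 and 8 rose in set 1. That was 23.1% in K562 and 61.5% in set 1, where 15.8% and 36.7% of all genes passed. In set 2, 1 of 13 rose, where 2.44% of all genes passed. In set 1, MT-ND1 had a change of 0.57, MT-CYB of 0.42 and MT-ND3 of 0.36. Also in set 1, 12 of 29 assembly factors rose and 1 fell, and 9 of 16 transcription and RNA factors rose and 0 fell, where 36.7% of all genes passed. In set 2, 0 of 29 and 0 of 16 passed (edgeR), with medians of -0.01 and -0.02, and the difference between the sets passed for 3 of 29 and 3 of 16, where 13% of all genes passed. In set 1, TFB2M, a mitochondrial transcription factor, had a change of 0.38, and LRPPRC, which stabilises mitochondrial messages, of 0.26. For comparison, 2 of 84 cytosolic ribosomal proteins rose and 1 fell in KBM7. In set 1, 9 of 83 rose and 6 fell. Of 77 nuclear respiratory chain subunits, 5 rose and 5 fell in KBM7, and 6 rose and 6 fell in set 1. NDUFB5 of complex I had the lowest p of these in K562, with a change of -0.46 ± 0.05 (SE) over both sets.

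Levels per length were taken as CPM per 1000 exonic bases of GENCODE 44. In KBM7 the median over 77 symbols was 17.0 with siUSP15 and 17.5 with siCtrl. It was 24.1 with siUSP15 and 21.2 with siCtrl in K562 set 1, and 25.4 with siUSP15 and 26.6 with siCtrl in set 2. In each case the siUSP15 and siCtrl medians fell on different genes, in set 1 on MRPL24 and MRPS26. Their gap is therefore not a change per gene, whose median in set 1 was 0.05 on the log2 scale. MRPL15 was the highest in KBM7, at 86.6 with siUSP15 and 80.7 with siCtrl. In K562 the highest was MRPL41, at 86.7 with siUSP15 and 92.5 with siCtrl in set 1. MRPS24 was the lowest in every group, with 11 and 11 counts in siUSP15 KBM7 libraries and 13 and 11 in siCtrl KBM7 libraries. In K562 it had 12 to 16 counts with siUSP15 and 8 to 21 counts with siCtrl. Its exons are shared in part with a read-through gene, URGCP-MRPS24, and its change was not resolved at this depth, with an interval beyond 0.5 log2 units.

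Some rows cannot be read as 1 gene. MRPL23 has a row on chromosome 11 and a row on the scaffold KI270721.1. The scaffold row had 0 and 2 counts in siUSP15 KBM7 libraries and 0 and 1 counts in siCtrl KBM7 libraries, but 138 to 219 counts in siUSP15 K562 libraries and 131 to 153 counts in siCtrl K562 libraries. MRPS17 has a further row that overlaps exons of ZNF713, with at most 1 count in any library. Of 78 members found in GENCODE 44, 19 share exonic bases with a gene of the same strand, 6 of them over 25% of their exonic bases or more, with MRPL53, MRPL12 and MRPL38 among these 6. MRPL12, which carries translation factors to the ribosome, had 10.3 and 5.87 CPM with siUSP15 in KBM7, against 9.58 and 10.4 CPM with siCtrl. Its change of -0.28 ± 0.19 (SE) did not pass, and its siUSP15 libraries differed from each other more than the siCtrl libraries did.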

How the data were processed

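The authors deposited 1 table of raw counts per gene for each cell line, made per the submitters' processing notes with TopHat2 2.1.0 on hg38 and with HTSeq, edgeR and limma. The sources differ on the counter and on the sequencer, and whether counting used strand is not stated. The K562 table is named as batch corrected, but its counts are whole numbers, and which libraries formed a batch is not given in the sources used here. The 12 log2 columns and the 3 columns per table of the authors' own comparisons (fold changes and p-values) were not used.

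Counts were filtered with filterByExpr, scaled by TMM and tested with edgeR 4.0.16 (quasi-likelihood, R 4.3.3), with Benjamini-Hochberg adjustment over all genes tested and a threshold of 0.05. The fits were run on simulated data with planted changes larger than those of nearly all members. Calls of changes as small as theirs were not tested that way. KBM7 was fitted on its 4 libraries, and K562 on its 8 libraries with the set as a block or with separate groups per set. The cell line difference was fitted on all 12 libraries. SD is over libraries, and intervals are 95%. SE was derived from the log2 fold change and its edgeR test statistic, whose estimate of spread is moderated over all genes. For the K562 sets that estimate is shared by all 8 libraries. Alternatives were other scalings, no filter, DESeq2 1.42.0, limma-voom (limma 3.58.1), a replicate block, no set block, other subunit assignments and each library left out.

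Deviations of same-numbered K562 libraries correlated at 0.54 to 0.69 in 4 pairs, but only 2 of 4 numbers correlated best with themselves. Replicates 1 and 2 each matched the other best. Deviations were taken from the mean of each siRNA group over both sets, so the gap between the sets by itself makes these correlations positive. They therefore cannot show that the number pairs the libraries. The block was run because every pair's correlation was over 0.1, and it is given where it changes a call. In KBM7 same-numbered libraries did not deviate together (correlation 0.0026). The members, gene lists and K562 sets were chosen with earlier results of these data known. Members named are USP15, MRPS6 with SLC5A3, up to 8 per direction with the largest change past the threshold in each comparison, the 4 per direction with the lowest p for each difference, the 4 genes with the lowest p of each related list, and members that share a symbol, locus or reads. Values of MRPS6 and SLC5A3 are given without p because MRPS6 had been put forward as an outlier. From each related list only part of these genes is described. Exon overlap was taken from GENCODE 44 and promoter sequence from RefSeq (GRCh38.p14).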

Additional observations from a re-analysis of the deposited data

Results flagged for a closer look

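Among 56 groups of 4 libraries tested for a library far from the others, 1 was found, where chance gives about 1 in 20 for libraries of 1 kind, although each group here spans both K562 sets, which stand apart: MRPL24 in K562 siCtrl libraries, with siCtrl replicate 4 at 41.4 CPM.

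The change with siUSP15 was larger in K562 set 1 than in set 2 for 10 of 78 members in the test of the difference itself (edgeR), 12.8% where 13% of all genes passed, by 0.56 for MRPS17, 0.45 for MRPL36, 0.43 for MRPL20, 0.32 for MRPL57, 0.31 for MRPL1, 0.31 for MRPL11, 0.26 for MRPS2, 0.25 for MRPS12, 0.23 for MRPS9 and 0.19 for MRPL49 on the log2 scale.

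MRPS6 is described without a test and had a difference of -1.46 between KBM7 and K562 (KBM7 minus the mean of the K562 sets). With it the share of members that passed was 23.1%, where 23.2% of all genes passed (edgeR). The change also differed for 17 other members. It was lower in KBM7 by -0.67 for MRPL16, -0.37 for MRPL34, -0.35 for MRPL36, -0.32 for MRPL57, -0.30 for MRPL45, -0.29 for MRPS34, -0.28 for MRPS2, -0.28 for MRPS26 and -0.20 for MRPS12. It was higher in KBM7 by 0.31 for MRPL39, 0.25 for MRPS18C, 0.24 for MRPL40, 0.23 for MRPS31, 0.22 for MRPL24, 0.19 for MRPS35, 0.18 for MRPS18B and 0.16 for MRPL35. The K562 sets themselves differed for MRPL36, MRPL57, MRPS2 and MRPS12. In set 1 their changes were 0.58, 0.27, 0.27 and 0.31, and in set 2 they were 0.13, -0.06, 0.01 and 0.06. Whether these members differed from KBM7 within each set was not tested.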

How the results depend on the processing

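For named members, 477 of 585 alternative values kept direction and call, 108 lost the call and 0 reversed. DESeq2 gave 7 members in KBM7 and 6 for the set difference. With the replicate block, 0 members passed in K562 and 2 in set 2. It gave 15 in KBM7, where the numbers did not pair the libraries, 23 in set 1 and 13 for the set difference. With no set block, 0 members passed in K562 and 1 for the cell line difference, and USP15 had a change of -0.93 in K562 with an adjusted p of 0.183 (edgeR). Without a filter on low counts, 1 member passed in set 2 and 16 for the set difference, the small-subunit median was 0.050 in K562, and the set 1 medians were 0.095 for members, 0.071 for the large and 0.12 for the small subunit. Scaling by total counts gave KBM7 medians of 0.056, 0.038 and 0.071 for members, large and small subunit, and 0.056 for the small subunit in set 1. Assigning subunits by structure gave 0.061 for the small subunit in KBM7. The cause of these shifts was not tested. With each library left out, and a lone library assumed to vary like the others, the counts of members were 3 to 18 in KBM7, 0 to 8 in K562, 15 to 22 in set 1, 0 to 1 in set 2, 3 to 17 for the set difference and 11 to 21 for the cell line difference. The medians of members were then -0.014 to 0.025 in K562 and 0.026 to 0.068 in set 1, those of the large subunit 0.014 to 0.062 in set 1, and those of the small subunit 0.027 to 0.080 in KBM7, 0.014 to 0.059 in K562, 0.047 to 0.10 in set 1 and -0.045 to 0.0067 in set 2. Leaving MRPS6 out, chosen after seeing the data, gave 13 in KBM7, 6 in K562, 21 in set 1, 0 in set 2, 10 for the set difference and 17 for the cell line difference. Depth limited MRPS24, with 8 to 21 counts per library.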
